A study of Mus musculus with 48 samples.

Results

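The transcripts described here are those of 10 receptors through which neurons of the arcuate nucleus of the hypothalamus read metabolic hormones and feeding peptides: Lepr, Ghsr, Insr, Igf1r, Glp1r, Mc3r, Mc4r, Npy1r, Npy2r and Npy5r. They were taken by gene symbol from a count table of 25229 genes, and all 10 were present. RNA was sequenced from male mice on the C57Bl/6J background carrying Rev-erba/b flox/flox alleles, that is, loxP sites in both genes for nuclear receptors of the REV-ERB family (Nr1d1 and Nr1d2), repressors in the circadian clock. A tail vein injection at 6 to 10 weeks of age delivered an adeno-associated virus with the hepatocyte promoter TBG, either AAV8-TBG-EGFP (Control) or AAV8-TBG-Cre (HepDKO). The floxed alleles were thus shared by both groups, and Cre was directed to liver cells, not to the brain. Mice were kept on chow in 12 h light and 12 h dark at 27 °C, and tissue was taken 2 to 4 weeks later, at 10 to 12 weeks of age, at zeitgeber times (ZT, hours after lights on) 4, 10, 16 and 22. Each of the 24 arcuate libraries was a pool of punches from 3 mice per the sample labels, or 3 to 4 per the series description, with 3 libraries in each of 8 groups. A further 24 libraries of left nodose ganglia, the site of vagal sensory cell bodies, pooled 4 mice each and had the same 8 groups. Replicates are named biological in the labels, and a p-value measures the spread between these pools.

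Leptin from fat and insulin from the pancreas act on arcuate neurons that release melanocortin peptides and on neighbouring neurons that release AgRP and NPY. The former curb feeding and the latter promote it. Ghrelin from the stomach drives the AgRP and NPY neurons through GHSR, while GLP-1 acts in the opposite sense on intake. Melanocortin receptors pass on the signal in target neurons, and NPY receptors include both postsynaptic forms and an autoreceptor. The comparison of genotypes across the day asks whether loss of the clock repressors in hepatocytes goes with changed receptor transcripts in this nucleus.

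Across the 9 arcuate comparisons, 4 of a genotype difference at single times, 1 of its mean, 3 of a 24-h rhythm and 1 of the difference in rhythm, none of the 10 receptors was past the threshold, an adjusted p of 0.05 in the quasi-likelihood test of edgeR, with Benjamini-Hochberg adjustment over all 16102 genes tested. All 10 passed the filter on low counts. Levels are counts per 1000000 library counts (CPM), scaled by edgeR's TMM factors. Differences are log2 fold changes of HepDKO over Control, and an amplitude is the mean-to-peak size, in log2 units, of a cosine wave with a period of 24 h. The nearest to a call were the rhythms of Lepr, Npy1r and Igf1r averaged over genotypes, for which edgeR gave an adjusted p of 0.0857, 0.0875 and 0.0998. The levels in each library are plotted by time and genotype.

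**Figure D1:**
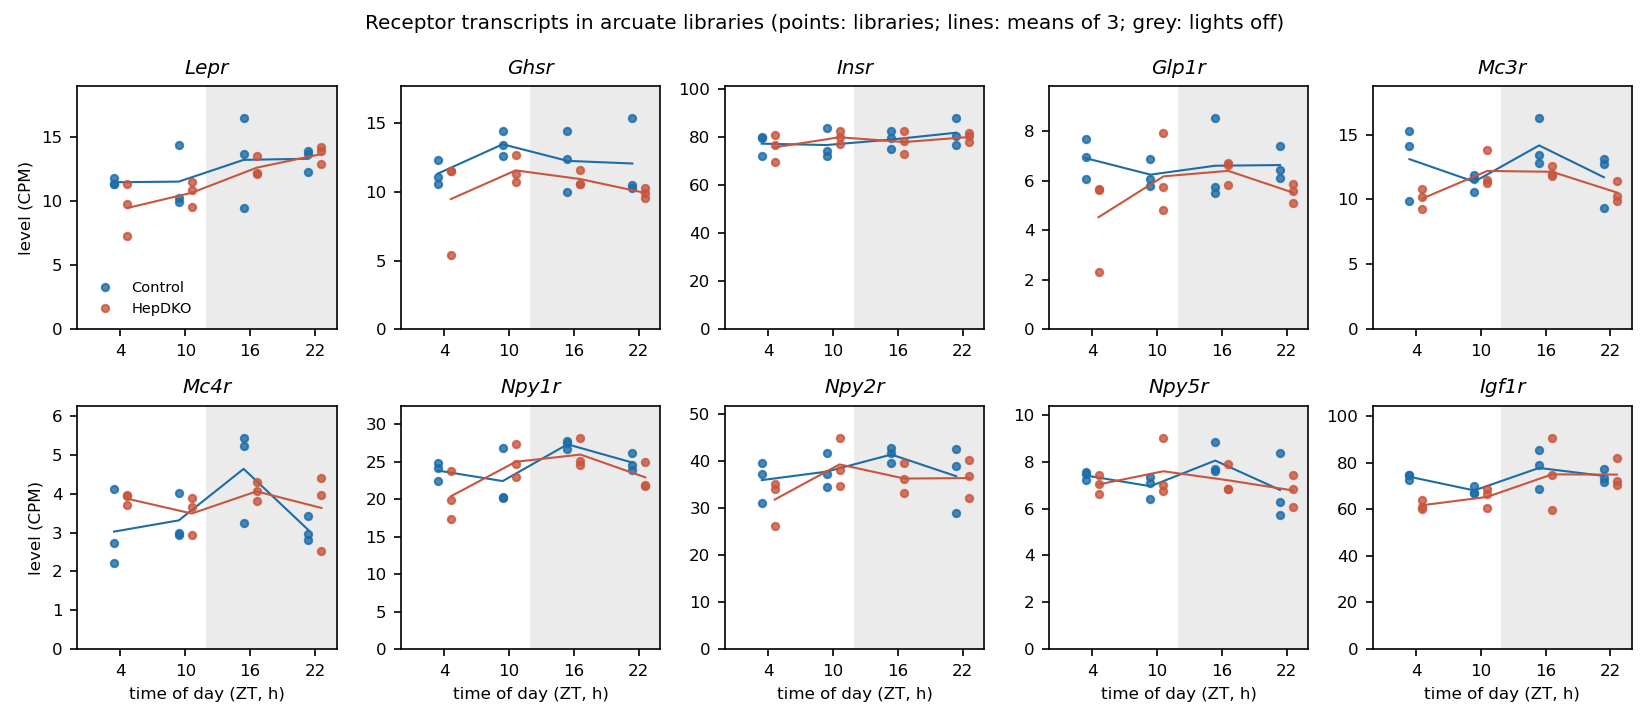
Level of each receptor transcript (CPM, TMM-scaled, vertical axis from 0) against zeitgeber time in hours for Control (blue) and HepDKO (red) arcuate libraries. Points are libraries, drawn slightly apart by genotype, lines join means of 3, and grey marks lights off. Lepr means go from 10.5 CPM at ZT4 to 13.5 CPM at ZT22 over both genotypes, and the lowest points of Lepr, Ghsr and Glp1r are all HepDKO ZT4 replicate 3.

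The arcuate libraries held 15483922 to 20399718 counts, and the nodose libraries 1813994 to 10422914. All 13 listed arcuate neuron markers, among them Agrp, Pomc and Ghrh, averaged at least 1 CPM in arcuate, and their sum ranged from 485 to 716 CPM. Markers of adjoining regions were present too, with medians of 22.6 CPM for Nr5a1 of the ventromedial nucleus and 103 CPM for Hcrt of the lateral hypothalamus. The library labelled HepDKO ZT4 replicate 3 stood apart. It had the lowest summed general neuron markers (2870 CPM, median of the 24 libraries 3270), astrocyte markers (1010, median 1370) and microglia markers (101, median 132). It also had the highest ventromedial markers (370, median 284) and pituitary markers (50.2, median 29.8). Its arcuate neuron markers lay within the range of the others. It had the lowest sum of a list that joins dorsomedial markers (Gpr50, Ppp1r17 and Grp) with Pmch and Hcrt of the lateral hypothalamus (199 CPM, median 292), most of it from Pmch and Hcrt, and the highest TMM factor (1.08). The ribosomal precursor Rn45s took 2.08% of its counts, the lowest share, with 4.1% in the next lowest. The part of these differences in the receptor values was not tested. The receptor counts and the called or leading genes at ZT4 and in the averaged rhythm are given with and without this library. In bulk tissue, fewer cells of a type and less RNA per cell cannot be told apart. The deleted genes were not called in arcuate, which does not check the deletion because TBG-Cre is directed to hepatocytes: the mean log2 fold change was 0.06 for Nr1d1 (95% interval -0.03 to 0.15) and -0.07 for Nr1d2 (-0.17 to 0.04). The edgeR adjusted p was 0.673 and 0.698.

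The receptors differed widely in abundance. Compared per kilobase of annotated exon (GENCODE vM21, GRCm38/mm10), Npy2r was the most abundant at 10.9 ± 1.36 CPM per kb (SD, n = 24 libraries), above 71% of the 15813 genes with a length. Npy1r followed at 6.97 ± 0.809, then Insr at 5.72 ± 0.317, Mc3r at 4.54 ± 0.689, Igf1r at 4.25 ± 0.472 and Npy5r at 2.83 ± 0.312 CPM per kb. Ghsr had 2.57 ± 0.452, Lepr 1.7 ± 0.292, Mc4r 1.3 ± 0.284 and Glp1r 1.06 ± 0.21 CPM per kb. In that order the ranges of mean ± SD overlapped between Mc3r and Igf1r, between Npy5r and Ghsr, between Lepr and Mc4r and between Mc4r and Glp1r, and not between the other neighbours. The length is the union of all annotated exons, so a gene with long untranslated exons that these cells do not use is placed too low.

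Leptin binds LEPR, a cytokine receptor that signals through JAK2 and STAT3. Lepr lies on the plus strand of chr4:101717404-101815352. Over the 12 Control libraries its lowest, median and highest levels were 9.44, 12 and 16.5 CPM, and over the 12 HepDKO libraries 7.26, 11.8 and 14.2 CPM, so the genotypes overlapped. The mean log2 fold change was -0.10 (SE 0.0828, 95% interval -0.27 to 0.07, adjusted p 0.715 by edgeR's test). It was -0.15 without Control ZT16 replicate 1, -0.05 without Control ZT16 replicate 2 and -0.06 without HepDKO ZT4 replicate 3. By time of day, the 3 HepDKO libraries read 9.79, 11.3 and 7.26 CPM at ZT4, 9.55, 10.9 and 11.5 at ZT10, 12.2, 12.1 and 13.5 at ZT16, and 12.9, 13.9 and 14.2 at ZT22. All 6 HepDKO libraries of the dark phase were thus above all 6 of the light phase. The share of all genes that separate so was not counted. In these libraries the summed endothelial markers ran from 91.6 to 122.8 CPM in light and 115.6 to 142.4 CPM in dark. The part of this in Lepr was not tested. The Control libraries read 11.8, 11.3 and 11.3 CPM at ZT4, 9.95, 10.2 and 14.4 at ZT10, 9.44, 16.5 and 13.7 at ZT16, and 12.3, 13.7 and 13.9 at ZT22. Here light and dark libraries overlapped, with the lowest and the highest value both at ZT16. The amplitude was 0.27 (SE 0.083, peak ZT18.7, adjusted p 0.175 by edgeR's test) in HepDKO and 0.14 (SE 0.0825, peak ZT19, adjusted p 0.883) in Control. Without Control ZT16 replicate 1 the Control amplitude was 0.23, and over the libraries left out in turn the HepDKO amplitude ran from 0.22 to 0.33. The difference between them had an adjusted p of 0.999 and an unadjusted p of 0.552 by the same edgeR test. Averaged over genotypes the amplitude was 0.21 (SE 0.0585, peak ZT18.8, adjusted p 0.0857 by edgeR's test), a 1.33-fold step from trough to peak. DESeq2 placed this rhythm past the threshold, with an adjusted p of 0.045, and called 1075 genes for it against 622 by edgeR. So did edgeR with the tanycyte marker score as a covariate (adjusted p 0.0136). It was not called by edgeR with RLE in place of TMM factors, no filter, a replicate block, the arcuate neuron score or 1 surrogate variable. The amplitude was 0.18 without HepDKO ZT4 replicate 3 (adjusted p 0.0839 by edgeR), and over all libraries left out in turn the adjusted p ran from 0.0196 to 0.164.

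INSR and IGF1R are receptor tyrosine kinases that signal through IRS proteins, PI3 kinase and AKT. Insr lies on the minus strand of chr8:3122061-3279617. It was the steadiest of the 10, with a coefficient of variation of 5.55% over 24 libraries. Its levels were 72, 79.8 and 88.1 CPM (lowest, median and highest) in Control and 69.6, 79.4 and 82.6 CPM in HepDKO. The 95% interval of the mean genotype difference ran from 5.33% lower to 4.92% higher, so larger mean changes of Insr lay outside it. Its averaged amplitude was 0.03 (SE 0.0255, adjusted p 0.714 by edgeR's test). It ran from 0.021 without Control ZT22 replicate 1 to 0.045 without Control ZT10 replicate 2.

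Igf1r lies on the plus strand of chr7:67952827-68233668. At ZT4 it read 74.6, 74.7 and 72.6 CPM in Control and 61.2, 60.1 and 64 CPM in HepDKO, with no overlap. The share of all genes that separate so was not counted. The log2 fold change there was -0.26 (SE 0.099, 95% interval -0.47 to -0.06, unadjusted p 0.0141, adjusted p 0.347 by edgeR's test). Without HepDKO ZT4 replicate 3 it was -0.29. At ZT10 the values were 67.1, 70.1 and 67.1 CPM in Control and 60.6, 66.6 and 68.8 CPM in HepDKO. At ZT16 they were 68.7, 85.4 and 79.2 against 59.6, 90.8 and 74.6 CPM, and at ZT22 71.9, 73.6 and 77.5 against 72.2, 82 and 70.5 CPM. At each of these 3 times the genotypes overlapped. HepDKO ZT16 held both the lowest and the highest Igf1r value of the 24 arcuate libraries. The averaged amplitude was 0.12 (SE 0.035, peak ZT18.8, adjusted p 0.0998 by edgeR's test). Without HepDKO ZT16 replicate 1, the lowest, it was 0.15, with an adjusted p of 0.0154 by edgeR. Without HepDKO ZT16 replicate 2, the highest, it was 0.09, and over all libraries left out in turn the adjusted p reached 0.183.

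GHSR is the receptor for acyl ghrelin and couples to Gq. Ghsr lies on the plus strand of chr3:27371351-27378010. Its levels were 9.98, 12.4 and 15.4 CPM (lowest, median and highest of 12) in Control and 5.43, 10.6 and 12.7 CPM in HepDKO. The 2 ranges overlapped, with 5.43 CPM in HepDKO ZT4 replicate 3 far below the next lowest, 9.58 CPM. The mean log2 fold change was -0.23 (SE 0.0966, 95% interval -0.43 to -0.03, unadjusted p 0.0254, adjusted p 0.524 by edgeR's test), and -0.16 without that library. The ZT4 estimate was -0.26, followed by -0.22 for ZT10, -0.16 for ZT16 and -0.28 for ZT22. At ZT4 the Control libraries read 10.6, 12.3 and 11.1 CPM and the HepDKO libraries 11.5, 11.5 and 5.43 CPM. Only replicate 3 lay below Control there, and without it the ZT4 estimate was 0.02. At ZT22 HepDKO read 9.58, 10.3 and 9.89 CPM against 15.4, 10.5 and 10.3 CPM. The averaged amplitude of Ghsr was 0.12 (SE 0.0683, adjusted p 0.466 by edgeR's test).

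The promoters of the receptors were read for elements tied to the clock or to receptor signalling. RefSeq windows (GRCm38.p6) of the 250 bases before the start were matched by symbol for 8 of the 10 genes, all but Insr and Mc4r. They were searched on both strands for the E-box CACGTG, which CLOCK and BMAL1 bind and which 6.02% of all 32851 windows held. The others were the ROR element core TAGGTCA, which REV-ERB and ROR proteins bind (2.23%), the D-box TTATGTAA (0.819%), the cAMP response element TGACGTCA (1.55%) and the STAT palindrome TTCCNGGAA (0.913%). There were 2 matches, the core of the ROR element at -91 in Ghsr and an E-box at -40 in Npy5r. Both windows are shown because they alone held a match, which was known before they were picked. The Ghsr window is chr3:27371101-27371350 on the plus strand, and the Npy5r window is the part outside annotated exons, chr8:66688129-66688344, written along its minus strand. Both read 5′ to 3′. Capitals mark the match, which in Ghsr is the reverse complement of the core.
Ghsr: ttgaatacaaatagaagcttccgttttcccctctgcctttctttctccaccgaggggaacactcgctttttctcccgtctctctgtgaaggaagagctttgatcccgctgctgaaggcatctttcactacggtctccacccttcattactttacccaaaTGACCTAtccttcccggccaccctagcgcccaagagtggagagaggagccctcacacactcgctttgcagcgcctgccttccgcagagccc
Npy5r: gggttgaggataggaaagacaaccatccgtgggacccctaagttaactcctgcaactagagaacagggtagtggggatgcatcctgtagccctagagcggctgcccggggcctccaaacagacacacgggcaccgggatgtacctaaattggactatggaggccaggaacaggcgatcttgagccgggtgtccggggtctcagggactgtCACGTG
A match is a run of letters in these windows. No binding was measured in these samples.

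GLP1R couples the incretin GLP-1 to cAMP. Glp1r lies on the plus strand of chr17:30901817-30940791 and had the lowest level per kilobase of the 10. At ZT4 it read 6.09, 7.69 and 6.97 CPM in Control and 5.65, 5.64 and 2.3 CPM in HepDKO, with no overlap. The log2 fold change was -0.61 (SE 0.23, 95% interval -1.08 to -0.13, unadjusted p 0.0139, adjusted p 0.347 by edgeR's test). Without HepDKO ZT4 replicate 3 it was -0.29. That library held 44 counts of Glp1r, against 109 or more in each Control library of that time. At the other times the genotypes overlapped at ZT10, with 5.79, 6.89 and 6.07 CPM in Control and 5.77, 4.84 and 7.93 CPM in HepDKO. They also overlapped at ZT16, with 5.77, 8.55 and 5.51 against 6.62, 5.85 and 6.74 CPM. At ZT22 they did not overlap, with 6.1, 7.39 and 6.42 against 5.11, 5.57 and 5.89 CPM. The log2 fold change at ZT22 was -0.27 (unadjusted p 0.261 by edgeR's test). For these splits too the share over all genes was not counted. The mean log2 fold change was -0.24 (SE 0.115, unadjusted p 0.05, adjusted p 0.579 by edgeR's test). The averaged amplitude was 0.11 (SE 0.0808, adjusted p 0.641), and 0.03 without HepDKO ZT4 replicate 3.

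MC3R and MC4R are the receptors for the melanocortin peptides made from POMC, with AgRP as their antagonist. MC3R is found on arcuate neurons themselves, and MC4R mainly on their targets. Mc3r lies on the plus strand of chr2:172248492-172251114 and Mc4r on the minus strand of chr18:66857704-66860506. At ZT4 Mc3r read 15.3, 14.1 and 9.92 CPM in Control and 9.23, 10.8 and 10.2 CPM in HepDKO. The groups overlapped through Control replicate 3. The log2 fold change at ZT4 was -0.38 (SE 0.142, 95% interval -0.67 to -0.08, unadjusted p 0.0135, adjusted p 0.347 by edgeR's test), and -0.39 without HepDKO ZT4 replicate 3. It was -0.25 without Control ZT4 replicate 1 and -0.53 without Control ZT4 replicate 3. At ZT10 the estimate was above 0, at 0.10, with 11.6, 11.9 and 10.6 CPM in Control and 11.3, 11.5 and 13.8 CPM in HepDKO. It was -0.22 for ZT16 and -0.15 for ZT22. The mean over times was -0.16 (SE 0.0716, unadjusted p 0.0328, adjusted p 0.534 by edgeR's test). Its levels over all times were 9.34, 12.7 and 16.3 CPM in Control and 9.23, 11.4 and 13.8 CPM in HepDKO (lowest, median and highest of 12).

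Mc4r was the only receptor with a mean estimate above 0, a log2 fold change of 0.12 (SE 0.115, 95% interval -0.12 to 0.35, adjusted p 0.76 by edgeR's test). It ran from 0.07 without Control ZT16 replicate 3 to 0.19 without Control ZT4 replicate 2. The Control libraries read 2.74, 4.12 and 2.22 CPM at ZT4, 2.95, 4.02 and 2.98 at ZT10, 5.23, 5.45 and 3.25 at ZT16, and 2.8, 2.97 and 3.43 at ZT22. A pair of ZT16 libraries stood above all the rest and the third lay among them. The Control amplitude was 0.32 (SE 0.114, peak ZT15.3, unadjusted p 0.0355, adjusted p 0.582 by edgeR's test). In HepDKO the values were 3.94, 3.98 and 3.71 CPM at ZT4, 3.88, 2.94 and 3.66 at ZT10, 4.3, 4.08 and 3.81 at ZT16, and 4.41, 3.96 and 2.54 at ZT22. All 4 times overlapped there, with an amplitude of 0.05 (SE 0.113, adjusted p 0.96). Leaving out HepDKO ZT22 replicate 3 gave 0.14 there, and in Control the amplitude ran from 0.23 without ZT4 replicate 3 to 0.46 without ZT4 replicate 2. The difference in rhythm between genotypes had an unadjusted p of 0.213 and an adjusted p of 0.999 by edgeR's test. Mc4r had 37 to 97 counts per arcuate library, and counting error alone gives it a coefficient of variation of 12.9%, against 21.9% observed.

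NPY1R and NPY5R are Gi-coupled postsynaptic receptors for NPY that mediate its effect on feeding. NPY2R acts as a presynaptic autoreceptor of NPY neurons and binds PYY(3-36) from the gut. Npy1r (plus strand, chr8:66697192-66706792) and Npy5r (minus strand, chr8:66679965-66688128) are neighbours that point away from each other, and Npy2r lies on the minus strand of chr3:82538383-82548084. Npy1r read 24.2, 24.8 and 22.4 CPM in Control at ZT4, 20.3, 20.1 and 26.8 at ZT10, 26.7, 27.7 and 27.5 at ZT16, and 24.5, 23.9 and 26.2 at ZT22. In HepDKO it read 19.9, 23.8 and 17.4 CPM at ZT4, 22.9, 24.7 and 27.3 at ZT10, 24.5, 28.2 and 25.1 at ZT16, and 21.8, 21.9 and 25 at ZT22. All 6 libraries of ZT16 were above all 6 of ZT4 except for HepDKO ZT16 replicate 1, which lay just under Control ZT4 replicate 2. The averaged amplitude was 0.14 (SE 0.0386, peak ZT16.2, adjusted p 0.0875 by edgeR's test), a 1.21-fold step from trough to peak. With the tanycyte markers as a covariate edgeR gave it an adjusted p of 0.0429, and without HepDKO ZT4 replicate 2 one of 0.0231. The tanycyte list is not particular to arcuate, with a median sum of 275 CPM there and 500 CPM in nodose. Without HepDKO ZT4 replicate 2, 1031 genes were called for the averaged rhythm, against 622 with all libraries. Leaving out HepDKO ZT4 replicate 3 gave an amplitude of 0.11 with an adjusted p of 0.136 by edgeR, and over all libraries left out in turn the adjusted p reached 0.201. By genotype the amplitude was 0.12 (SE 0.0546, adjusted p 0.746) in Control and 0.18 (SE 0.0547, adjusted p 0.166) in HepDKO. The difference between genotypes, with an unadjusted p of 0.156 and an adjusted p of 0.999 by edgeR's test, had the lowest p among the 10 receptors.

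Npy2r levels were 28.8, 39.1 and 42.7 CPM in Control and 26.2, 35.5 and 44.9 CPM in HepDKO (lowest, median and highest of 12). The mean log2 fold change was -0.08 (SE 0.0663, adjusted p 0.715 by edgeR's test), with -0.05 without HepDKO ZT4 replicate 3 and -0.12 without Control ZT22 replicate 1. The averaged amplitude was 0.10 (SE 0.0468, adjusted p 0.334). Npy5r levels ran from 5.73 to 8.85 CPM in Control and from 6.07 to 9.04 CPM in HepDKO. The mean log2 fold change of Npy5r was -0.03 (SE 0.0722, 95% interval -0.18 to 0.12, adjusted p 0.92 by edgeR's test). Its averaged amplitude was 0.06 (SE 0.0511, adjusted p 0.689), with 0.10 without Control ZT22 replicate 3 and 0.04 without HepDKO ZT10 replicate 3.

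Considered together, 9 of the 10 receptors had a mean estimate below 0, that is, lower in HepDKO, against 52.2% of all genes tested. The median log2 fold change was -0.09, against -0.004 for all genes. None was called, and 0% of all genes was called by edgeR's test in this comparison. At an unadjusted p under 0.05 there were 2 receptors, Ghsr and Mc3r, beside 8.61% of all genes, and DESeq2 called 23 genes, none of them a receptor. At ZT4, 9 of 10 were below 0 (51.1% of all genes), with a median of -0.24, and 3 of 10 had an unadjusted p under 0.05 (11.9% of all genes), namely Glp1r, Mc3r and Igf1r. There were 2 without HepDKO ZT4 replicate 3, Mc3r and Igf1r (4.79% of all genes). The adjusted call rate at ZT4 was again 0% by edgeR's test, and DESeq2 called 5 genes there, none of them a receptor. Without HepDKO ZT4 replicate 3, 7 of 10 were below 0 at ZT4 with a median of -0.10, and 8 of 10 over the mean of times with a median of -0.06. The receptors share libraries, so their directions are not independent. At ZT10 the estimates ran from -0.22 to 0.16 with 4 of 10 below 0 (49.8% of all genes). At ZT16 they ran from -0.22 to -0.02 with 10 of 10 below 0 (49.8%), and at ZT22 from -0.28 to 0.25 with 7 of 10 below 0 (51.1%). No receptor had an unadjusted p under 0.05 at these 3 times, beside 2.34%, 2.73% and 3.72% of all genes, and 0% of all genes was called at each by edgeR's test.

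**Figure D2:**
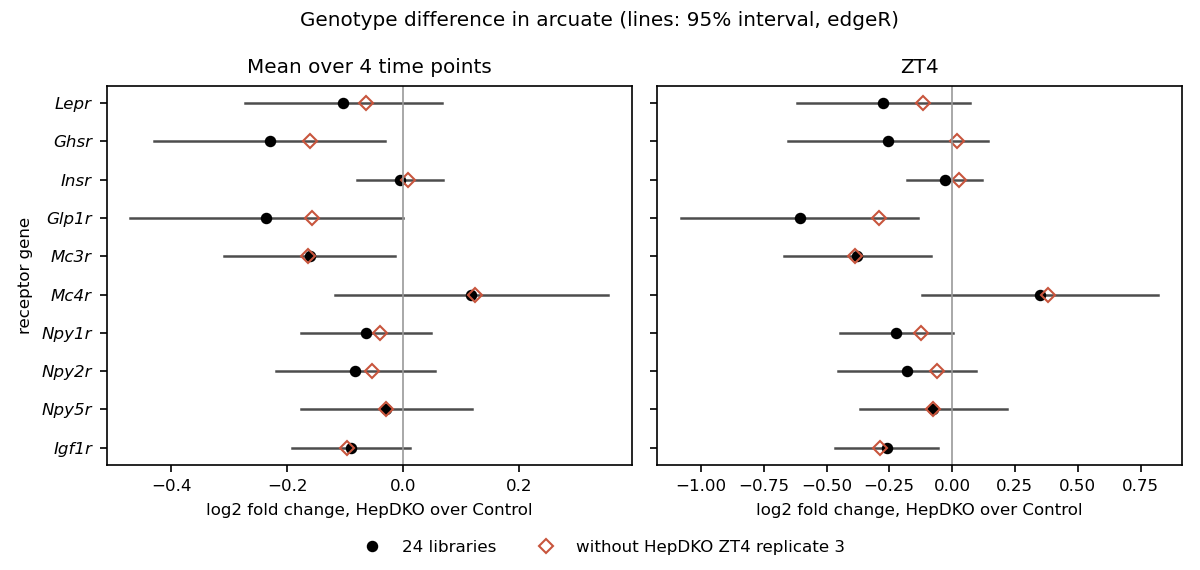
Log2 fold change of HepDKO over Control (horizontal axis) for each receptor in arcuate, as the mean over 4 time points (left) and at ZT4 (right). Black points and lines are edgeR estimates with 95% intervals from 24 libraries, and open red diamonds are the estimates without HepDKO ZT4 replicate 3. At ZT4, Glp1r moves from -0.61 to -0.29 and Ghsr from -0.26 to 0.02 when that library is left out, while Mc3r moves from -0.38 to -0.39 and Igf1r from -0.26 to -0.29. Leaving out a Control library instead moves Mc3r as far as -0.25 or -0.53, which is not drawn.

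Across the 24 arcuate libraries, the Pearson r of log2 CPM between receptors ranged from -0.16 (Insr with Npy5r) to 0.779 (Ghsr with Glp1r), with a median of 0.321 over 45 pairs, beside a median of -0.002 between a receptor and all other genes tested. Leaving out HepDKO ZT4 replicate 3 gave a range from -0.2 to 0.735 with a median of 0.175, and 0.404 for Ghsr with Glp1r. Mc3r with Npy2r had 0.713, and 0.735 without that library, and Lepr with Npy1r had 0.653 and 0.493. These r values come from shared libraries and are given as description. The part of depth and tissue content in them was not tested. Ghsr and Glp1r both had an r of 0.706 with the mean log2 level of the general neuron markers. With HepDKO ZT4 replicate 3 left out these r values were 0.037 for Ghsr and -0.173 for Glp1r. Npy2r had an r of 0.761 with the joint list of dorsomedial and lateral hypothalamic markers, and 0.668 without that library. Lepr had 0.608 and 0.674 with the endothelial markers, and Igf1r 0.506 and 0.498. The other 8 receptors ran from -0.113 (Npy5r) to 0.331 (Npy1r) with these markers over the 24 libraries. The summed endothelial markers ran from 88.9 to 122.8 CPM at ZT4 and ZT10 and from 115 to 142.4 CPM at ZT16 and ZT22. These markers were not used as a covariate, and their part in the rhythms was not tested. The part of tissue content in the receptor values was otherwise examined only through the marker scores used as covariates. The genes most alike over the 24 libraries were Esyt2 (r = 0.888) and Trp53bp1 (0.884) for Lepr, Bmpr1a (0.879) and Gna13 (0.873) for Ghsr, and Nedd4 (0.875) and Lrrn3 (0.869) for Glp1r. They were Klhdc10 (0.919) and AW551984 (0.867) for Npy2r, Smarce1 (0.831) and Prkca (0.828) for Npy1r, and Tmem176b (0.72) and Akap17b (0.706) for Npy5r. For Insr they were Nrg3 (0.804) and Wdr26 (0.799), for Igf1r Cacna1e (0.86) and Lcor (0.857), for Mc3r Cd24a and Tent5a (0.805 each), and for Mc4r Ier5l (0.731) and Atn1 (0.701). Without that library r was 0.673 and 0.65 for the pair of Ghsr and 0.523 and 0.602 for that of Glp1r. It was 0.718 to 0.882 for the pairs of the other 8 receptors. Other genes then came before the pairs of Ghsr, Glp1r, Npy5r and Igf1r, and before Prkca for Npy1r.

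**Figure D3:**
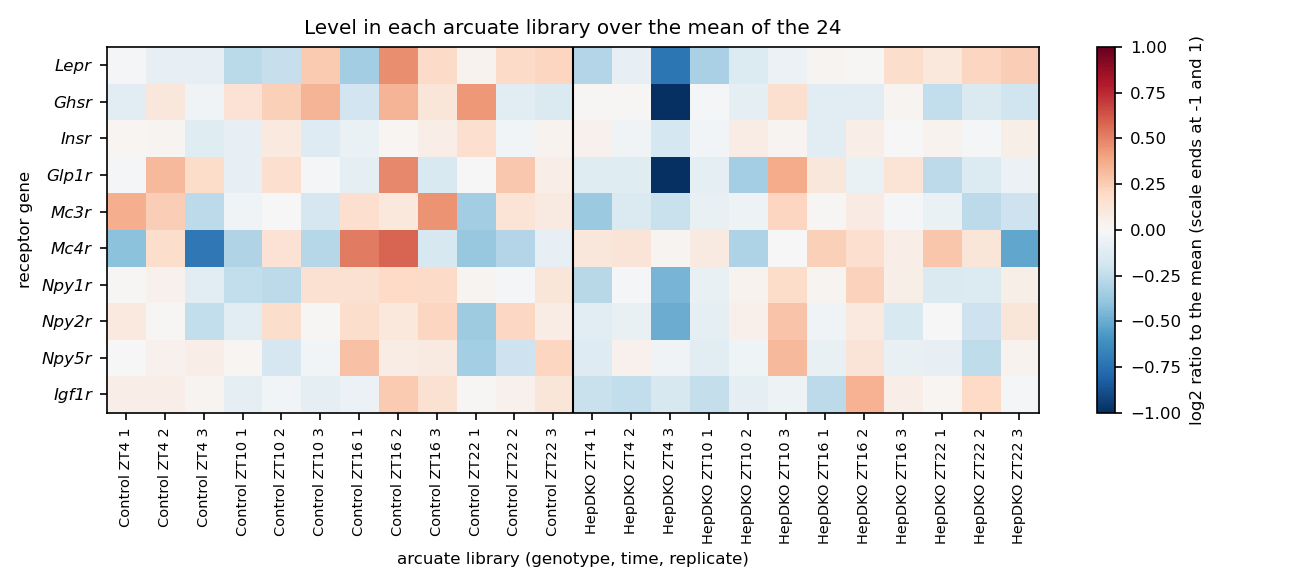
Log2 ratio of the level in each arcuate library to the mean of the 24 (colour, from -1 in blue to 1 in red) for each receptor (rows) and library (columns, Control left of the line and HepDKO right of it). Ghsr, Glp1r, Insr, Lepr, Npy1r and Npy2r are all at their lowest in HepDKO ZT4 replicate 3, where Glp1r reads 2.3 CPM against a median of 5.98 CPM.

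For time of day, the averaged 24-h component of all 10 receptors peaked between ZT12.6 (Npy5r) and ZT19.5 (Insr), in the dark phase, when mice feed. Of all genes tested, 48% peaked from ZT12 to ZT24. Within each genotype it was 9 of 10, beside 49% of all genes in Control and 48.1% in HepDKO. The exceptions were Glp1r at ZT0.403 in Control and Npy5r at ZT10.8 in HepDKO. The average without HepDKO ZT4 replicate 3 was 9 of 10 too (47.3% of all genes), with Ghsr at ZT10.3. The median amplitude was 0.12 for the receptors and 0.07 for all genes. An amplitude is never below 0 and grows with the spread between libraries. The biological coefficient of variation fitted by edgeR was above the median of all genes, 8.66%, for 7 of the 10 receptors, with 17.1% for Glp1r. None of the 10 was called, beside 3.86% of all genes (622) by edgeR's test. At an unadjusted p under 0.05 there were 3 of 10, Lepr, Npy1r and Igf1r, beside 21.6% of all genes. Within Control, 0 of 10 were called (0.261% of all genes) and 1, Mc4r, had an unadjusted p under 0.05 (7.73%). Within HepDKO, 0 of 10 were called (0.379%) and 3 had an unadjusted p under 0.05 (17.4%), the same 3 as in the average, which holds the HepDKO libraries. For the difference in rhythm between genotypes, 0% of all genes and 0 of 10 receptors were called by edgeR, with 0 receptors at an unadjusted p under 0.05 (2.37% of all genes), and DESeq2 called 1 gene. The clock gene Dbp, for scale, had an averaged amplitude of 0.63 (SE 0.0461, peak ZT8.49, adjusted p 3.72e-08 by edgeR's test). With 4 times of day, each 6 h apart, a 24-h wave cannot be told from other shapes. A test of any time effect, with 3 degrees of freedom, gave an adjusted p of 0.134 for Lepr, 0.148 for Npy1r and 0.169 for Igf1r by edgeR.

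**Figure D4:**
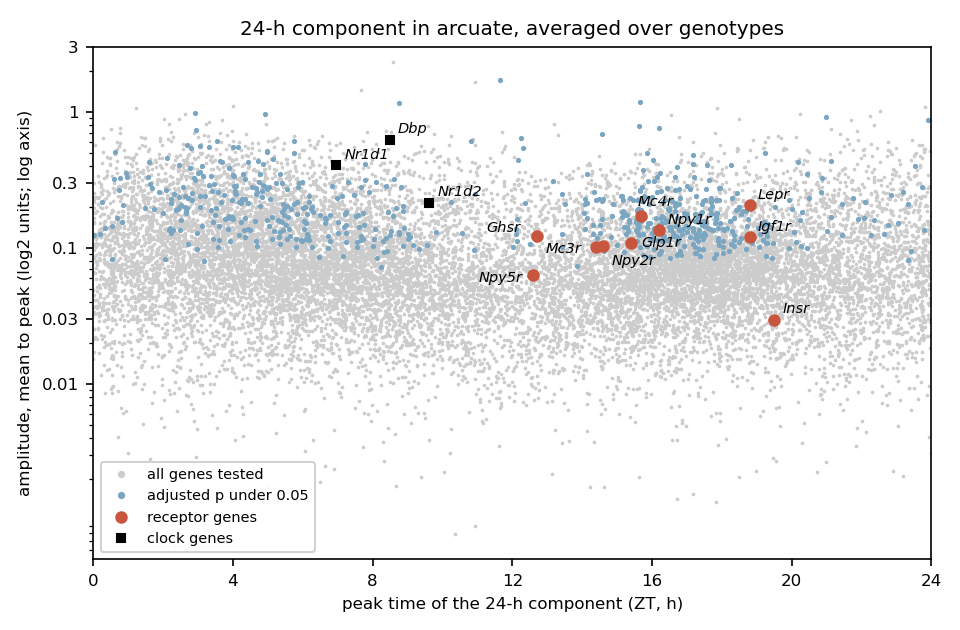
Amplitude of the 24-h component in arcuate averaged over genotypes (vertical log axis, log2 units) against its peak time (horizontal axis, zeitgeber hours). Grey dots are all 16102 genes tested, blue dots the 622 past the threshold, red points the 10 receptors and black squares the clock genes Nr1d1, Nr1d2 and Dbp. The receptors lie between ZT12.6 and ZT19.5 with amplitudes of 0.03 to 0.21, all below Nr1d2 at 0.22.

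The partners of these receptors were taken from 4 lists. Among 11 leptin signalling genes, 2 were called for an averaged rhythm by edgeR's test, beside 3.86% of all genes: Stat5a, a transcription factor activated by cytokine receptors, with an amplitude of 0.28 (SE 0.0676, peak ZT5.87, adjusted p 0.0413), and Socs3, the feedback inhibitor of leptin signalling, with 0.28 (SE 0.0662, peak ZT17.9, adjusted p 0.0417). Their peaks lay about opposite each other in the day. Among 39 other receptors for hormones and feeding peptides, 4 were called beside the same 3.86% of all genes. All 4 had a peak in the dark phase, as did 341 of the 622 genes called over the whole table. The 3 named here by lowest p were Tacr3, the neurokinin B receptor (amplitude 0.18, SE 0.0371, peak ZT17.9, adjusted p 0.0152 by edgeR), the serotonin receptor gene Htr1b (0.22, SE 0.0461, peak ZT16.3, adjusted p 0.02) and Ghr, the growth hormone receptor (0.15, SE 0.0329, peak ZT14.5, adjusted p 0.0262). The fourth, Cckar, a receptor for cholecystokinin, is added after its values were seen (0.22, peak ZT15.6, adjusted p 0.0471 by edgeR). Without HepDKO ZT4 replicate 3, Cckar was no longer called (adjusted p 0.063 by edgeR), and the other 5 named genes were, with an adjusted p from 0.0136 to 0.0459. In that fit edgeR called 971 of all 16271 genes tested. Of 23 insulin and IGF signalling genes and of 13 melanocortin, ghrelin and NPY partners, 0 were called for an averaged rhythm by edgeR, with 4 and 1 at an unadjusted p under 0.05, both shares under the 21.6% of all genes. The median amplitude was 0.06 for leptin signalling, 0.10 for the other receptors, 0.08 for insulin and IGF signalling and 0.06 for the partners, against 0.07 for all genes. In the other 8 arcuate comparisons 0 genes of these lists were called by edgeR, with 0 to 10 of a list at an unadjusted p under 0.05. The 10 were other receptors, at ZT4 and in the HepDKO rhythm, where 11.9% and 17.4% of all genes had such a p. The count at ZT4 was 1 without HepDKO ZT4 replicate 3. The mean genotype estimate was below 0 for 7 of 11 leptin signalling genes, 17 of 23 insulin and IGF signalling genes, 9 of 13 partners and 28 of 39 other receptors, with medians from -0.05 to -0.01. When HepDKO ZT4 replicate 3 was left out these counts were 4, 14, 9 and 20. The lowest p for a mean genotype difference was that of Thra, a thyroid hormone receptor, with a log2 fold change of 0.08 (SE 0.0271, adjusted p 0.42 by edgeR's test), and at ZT4 that of Galr1, a galanin receptor, with -0.68 (SE 0.22, adjusted p 0.322). Galr1 without HepDKO ZT4 replicate 3 had -0.36 (SE 0.152, adjusted p 0.98 by edgeR). At ZT10 it was Ptpn1 (-0.13, SE 0.0726), at ZT16 Crhr1 (0.36, SE 0.156) and at ZT22 Pomc (-0.70, SE 0.281), each with an adjusted p of 0.999 or 1 by edgeR's test. Among rhythms it was Ghr in Control (amplitude 0.15, adjusted p 0.41 by edgeR), Htr1b in HepDKO (0.29, adjusted p 0.0882) and Nmur2 for the difference between genotypes (0.36, adjusted p 0.999).

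Against nodose ganglia the receptors fell into 2 sets. Lepr, Insr and Igf1r were higher in nodose: their medians were 68.3, 165 and 141 CPM there and 12, 79.8 and 71.2 CPM in arcuate, with no overlap between libraries. Their log2 differences, arcuate over nodose in a fit of all 48 libraries, were -2.74 (SE 0.0784), -1.26 (SE 0.0428) and -1.16 (SE 0.041). Npy1r was higher in arcuate, at 17.4 to 28.2 CPM against 1.07 to 9.82 CPM, a log2 difference of 2.12 (SE 0.099). The adjusted p of these 4 differences was at most 4.66e-23 by edgeR's test. The other 6 were close to absent from nodose. Over the 24 nodose libraries there were 6 counts of Ghsr, 3 of Glp1r, 0 of Mc3r, 5 of Mc4r, 4 of Npy2r and 3 of Npy5r. The ratio of the arcuate mean to the pooled nodose level was 286 for Ghsr (95% counting interval 131 to 779), 111 for Mc4r (47.4 to 341) and 1390 for Npy2r (543 to 5110). For Glp1r it was 308 (105 to 1490) and for Npy5r 364 (125 to 1770). Of these few counts, 3 of 6 for Ghsr, 3 of 5 for Mc4r, 2 of 4 for Npy2r and 2 of 3 for Npy5r came from a single nodose library each. Without that library (Control ZT22 replicate 1, HepDKO ZT16 replicate 2, HepDKO ZT4 replicate 1 and HepDKO ZT22 replicate 2) the ratios were 537, 265, 2650 and 1060. For Mc3r, with 0 counts, the arcuate mean was 599 times a floor of 3 counts over the group. The lower end of its 95% counting interval, built as for the other 5, was 487. All 10 receptors were called for a tissue difference, beside 92.1% of all genes. The count is no result about the receptors: the share over all genes is near it, and the 6 with few nodose counts passed the filter only through arcuate, where they are high. Arcuate and nodose libraries were prepared differently, and these cannot be told apart from tissue. Intervals and floors cover counting error only.

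**Figure D5:**
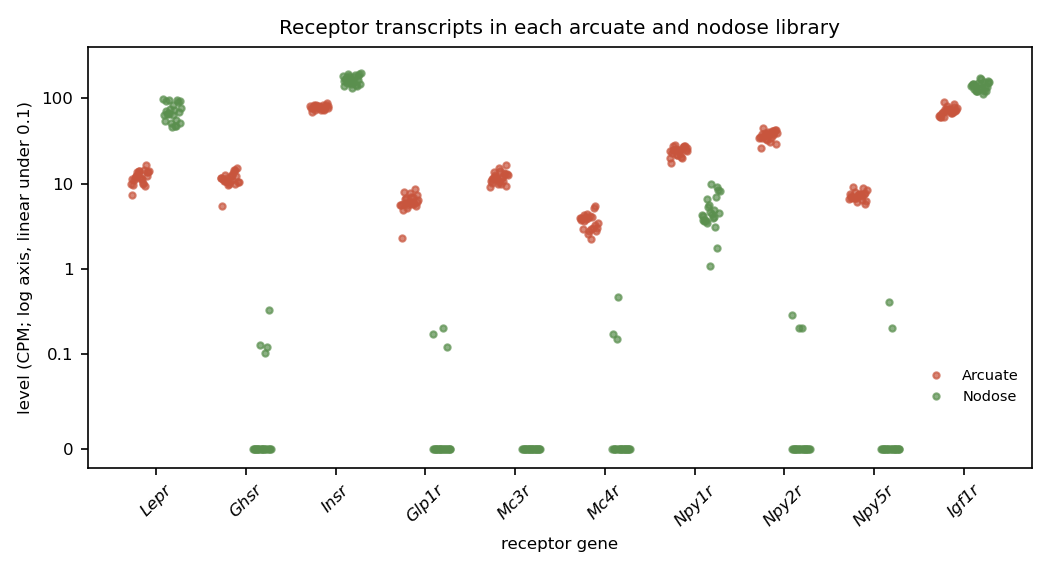
Level of each receptor in every arcuate (red) and nodose (green) library in CPM on an axis that is logarithmic above 0.1 and linear below it, scaled within each tissue. Lepr, Insr and Igf1r are higher in nodose in every library, Npy1r is higher in arcuate, and the other 6 receptors are at 0 in most nodose libraries.

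Transcripts of neurons were scarce in nodose. Snap25, a synaptic protein of neurons, had a median of 6.94 CPM there against 952 CPM in arcuate. Skeletal muscle markers summed to 3450 to 65300 CPM and Schwann cell markers to 12300 to 33000 CPM. Glp1r and Npy2r, which are known from vagal sensory neurons, were thus measured in libraries with little neuron RNA, and the part of this in their low counts was not tested. Only 4 receptors passed the nodose filter on low counts, Lepr, Insr, Npy1r and Igf1r. None was called for a mean genotype difference in nodose, where 0% of 14867 genes was called by edgeR's test and DESeq2 called 3. The lowest p was that of Npy1r, with a log2 fold change of -0.44 (SE 0.235, 95% interval -0.93 to 0.04, unadjusted p 0.0729, adjusted p 1 by edgeR's test), on 6 to 84 counts per library. For an averaged rhythm in nodose 0 of 4 were called, beside 1.33% of all genes, and the lowest p was that of Igf1r (amplitude 0.14, SE 0.0449, peak ZT1.16, adjusted p 0.265 by edgeR's test).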

How the data were processed

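RNA was sequenced from 24 arcuate and 24 nodose libraries. The authors deposited 1 table of raw counts by gene symbol. Per the submitters' processing notes, FastQC 0.11.7, Trim Galore 0.6.10, STAR 2.7.10b and mm10 were used. The counting tool, its annotation and its use of strand are not given in the sources used here. No receptor shares exon bases with another gene in GENCODE vM21. Per the labels' protocols, Novogene prepared the arcuate libraries, and the nodose libraries were prepared separately.

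Groups came from the sample titles. edgeR 4.0.16 in R 4.3.3 (filterByExpr, TMM, robust quasi-likelihood fit with 1 mean per group, Benjamini-Hochberg adjustment over all genes, threshold 0.05) was fitted to each tissue, and to all 48 libraries for the tissue difference. A rhythm joins the contrasts ZT4 minus ZT16 and ZT10 minus ZT22. The scripts were tested on simulated data. The members and lists were chosen with earlier results of these data known. All 10 receptors are named, with called genes of the other lists (up to 5 by lowest p per comparison) or else the 1 with the lowest p, and the 2 genes most correlated with each receptor. Alternatives were DESeq2 1.42.0, RLE factors, no filter, a replicate block, marker scores, 1 surrogate variable (sva 3.50.0), a test of any time effect, CPM of the library total, and leaving out each library.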

Additional observations from a re-analysis of the deposited data

How the results depend on the processing

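Of 480 receptor values under 7 alternatives, leaving out libraries aside, 474 kept both sign and call, 3 came under the threshold of 0.05 and 3 reversed. Amplitudes have no sign, so that the genotype and tissue values alone could reverse. The former were the averaged rhythm of Lepr by DESeq2 (adjusted p 0.045) and with the tanycyte score (0.0136 by edgeR), and that of Npy1r with the tanycyte score (adjusted p 0.0429 by edgeR). With 1 surrogate variable the log2 fold change was 0.0191 for Insr over the mean of times, 0.0417 for Insr at ZT4 and 0.0625 for Ghsr at ZT4. The surrogate was -0.922 in HepDKO ZT4 replicate 3 and ran from -0.0838 to 0.209 in the other arcuate libraries. It thus mostly marks that library, and leaving that library out reversed the same 3 values. Of 2040 values with a library left out, 9 came under the threshold that had not been under it before, all rhythms of Lepr, Npy1r or Igf1r, and 13 reversed. The reversed were among Ghsr at ZT4 (-0.417 to 0.0212), Insr at ZT4 (-0.0738 to 0.0279), and Insr (-0.017 to 0.0135) and Npy5r (-0.0639 to 0.0162) over the mean of times. The averaged rhythm passed for Lepr without HepDKO ZT4 replicate 2 (adjusted p 0.0368), Control ZT10 replicate 3 (0.0383) or Control ZT16 replicate 1 (0.0196). It passed for Npy1r without HepDKO ZT4 replicate 2 (0.0231) or Control ZT10 replicate 3 (0.0469), and for Igf1r without HepDKO ZT16 replicate 1 (0.0154) or Control ZT16 replicate 1 (0.0489), by edgeR. Within HepDKO, Npy1r passed without ZT4 replicate 2 (0.0475) and Igf1r without ZT16 replicate 1 (0.0346).

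Of 79 counts over all genes, 67 stayed within 1.5 times. DESeq2 called 23 genes for the mean genotype difference, 5 at ZT4, 101 for the Control rhythm, 385 for HepDKO, 1075 averaged, 1 for the difference in rhythm, and 3 and 383 for nodose genotype and rhythm. The arcuate neuron score gave 26 for the Control rhythm, the tanycyte score 119 for HepDKO, and 1 surrogate variable 2 for the mean genotype difference and 127 for the Control rhythm. Leaving out libraries gave 0 to 7 genes for the mean genotype difference and 0 to 3 at ZT4 (highest without HepDKO ZT4 replicate 1), and 0 to 5 at ZT22 (without Control ZT22 replicate 3). For rhythms it gave 11 to 117 for Control, 31 to 312 for HepDKO and 287 to 1031 averaged, the lowest without Control ZT4 replicate 3 and, for the last 2, HepDKO ZT16 replicate 2. The highest came without HepDKO ZT4 replicate 3 for Control and without HepDKO ZT4 replicate 2 for the other 2 rhythms. In nodose they were 0 to 1 for genotype (without Control ZT4 replicate 2) and 129 to 276 for rhythm (lowest without HepDKO ZT16 replicate 3). The cause was not tested. Same-numbered arcuate libraries of different groups deviated together with a median r of 0.025 (-0.128 to 0.163), so the numbers do not pair them. With a replicate block the averaged rhythm count was 677, and no receptor was called.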
